A study of Mus musculus with 6 samples.

Results

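The BCL2 family of apoptosis regulators was followed in 6 arrays of cells sorted from mouse small cell lung tumours, a neuroendocrine cancer of the lung. The members are 4 anti-apoptotic genes (Bcl2, Bcl2l1, Bcl2l2 and Mcl1), the effectors Bax and Bak1, and the BH3-only genes Bcl2l11, Bbc3, Pmaip1 and Bid. They were found as all probe sets that the array annotation ties to exactly 1 of these 10 symbols. This gave 31 of 45037 probe sets and 9 of 18193 genes. Bax was not analysed here.

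Tumours of both fractions came from Rb/p53/p130 mutant mice on a mixed C57BL/6;129Sv/J background. They were harvested 6 to 7 months after Adeno-Cre infection, with no treatment. The sources used here do not give the promoter of the Cre virus, the sorting gates or the number of tumours per mouse. CD24, CD44 and EpCAM served as surface stains on the dissociated cells, and the cells with the marker profile of tumour-propagating cells (TPCs) and those with the non-TPC profile were sorted apart. Mice 1127, 920 and 0107 each gave 1 array per fraction, so each fraction has n = 3. Values are RMA levels on a log2 scale, and every difference is TPC minus non-TPC. With 3 arrays per fraction, precision is limited by their number.

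Proteins of this family decide whether the outer mitochondrial membrane is opened and cytochrome c released, which starts the caspase cascade of intrinsic apoptosis. The effectors form the openings. Anti-apoptotic members hold the effectors and the BH3-only proteins, which signal stress, and drugs that mimic a BH3 domain free them. Much of the control lies in protein binding, phosphorylation and turnover, which RNA levels do not show. Small cell lung cancer is known for abundant BCL2, and p53, which activates the Bax, Bbc3 and Pmaip1 genes, is deleted in these tumours.

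Averaged over the 6 arrays, all 10 measured neuroendocrine markers exceeded 6.91, the median over all genes. Their mean level was 10.78 to 11.10 in TPCs and 10.51 to 10.87 in non-TPCs. Mean levels of leukocyte, epithelial and fibroblast markers were below those of non-TPCs in every TPC array, and those of lymphocyte markers were not. The mean level of 8 leukocyte markers was 6.80 to 7.50 in TPCs and 7.55 to 8.50 in non-TPCs, and that of 9 alveolar and airway markers 8.50 to 9.06 in TPCs and 10.09 to 11.03 in non-TPCs. For 8 fibroblast markers the ranges were 5.81 to 6.03 and 7.04 to 9.39, and for 8 lymphocyte markers they overlapped, at 5.35 to 5.36 and 5.23 to 5.57. Of the alveolar and airway markers 2 passed the test between fractions. So did 1 of 6 neutrophil markers, S100a9 (difference -3.25, limma adjusted p = 0.0338). No marker of the leukocyte or fibroblast list did (lowest limma adjusted p 0.169 and 0.583). In a limma fit with each mouse as a replicate block the adjusted p was 0.0333 for the leukocyte marker Lcp1 and 0.0709 for S100a9. For the 2 alveolar markers that had passed, this limma fit gave an adjusted p of 0.029 (Sftpa1) and 0.051 (Sftpc). In such bulk samples fewer cells of a type and less RNA per cell cannot be told apart.

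None of the 9 measured members passed the test between fractions (limma, Benjamini-Hochberg adjusted over all genes, threshold 0.05). Their adjusted p-values ranged from 0.729 to 0.986, and 0.0605% of all genes passed. The differences of 8 of the 9 members were under 0.5 in size, against 89.6% of all genes. For 8 members the 95% limma interval lay within -1 and 1, that is, within a doubling or halving, against 81.4% of all genes. These intervals are from the fit with fraction as the only term and so include spread between mice. With each mouse as a replicate block, that of Bcl2l2 was -0.36 to 0.48 in place of -0.64 to 0.76. The median difference was 0.05 over the members and 0.04 over all genes. One member, the BH3-only gene Pmaip1, had TPC and non-TPC levels that did not overlap, against 12.6% of all genes. Its unadjusted p of 0.0355 in limma was also the only member value under 0.05, against 6.48% of all genes. Members with the same direction in all mice were 3 of 9, or 33.3%, against 33.5% of all genes. These shares were close to those of the whole array.

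**Figure D1:**
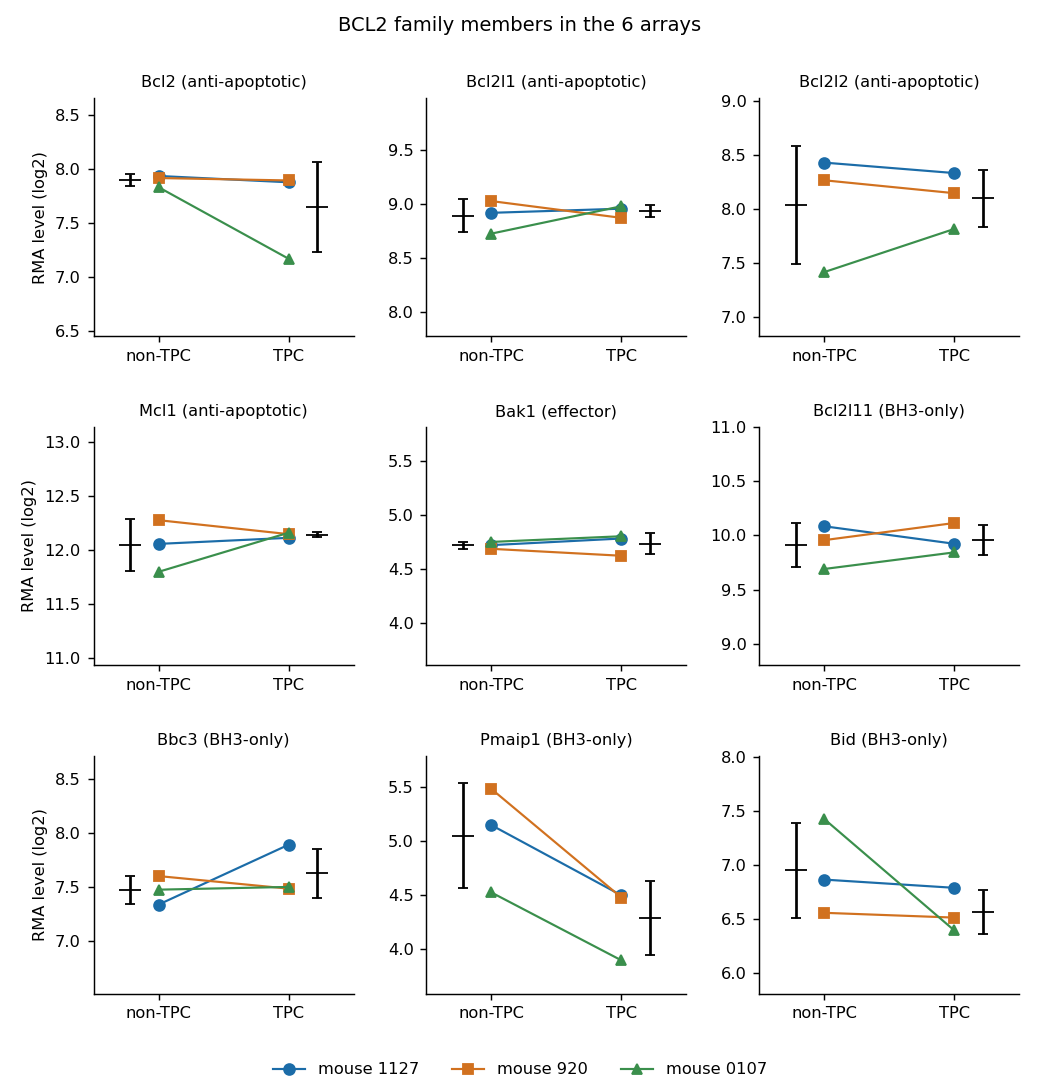
RMA levels (log2) of the 9 measured members in the 6 arrays, with 1 probe set per gene. Lines join the non-TPC and TPC array of a mouse, black bars give the mean ± SD of 3 arrays, and each panel spans 2.2 log2 units. The fractions separate for Pmaip1 alone, and the steep lines of Bcl2 and Bid belong to mouse 0107.

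Among the anti-apoptotic members, Mcl1 encodes a short-lived protein that many cells need to survive. It stood at 12.11, 12.14 and 12.16 in the TPCs of mice 1127, 920 and 0107 and at 12.05, 12.27 and 11.80 in their non-TPCs. The TPC arrays lay within 0.05 of each other and inside the range of the non-TPCs. The difference was 0.10 (SE 0.16, 95% interval -0.28 to 0.47, limma adjusted p = 0.939). The interval leaves room for a difference of less than 0.5 in either direction.

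Bcl2, the founding member of the family, was at 7.87, 7.89 and 7.17 in TPCs and at 7.93, 7.91 and 7.83 in non-TPCs of mice 1127, 920 and 0107. The TPCs of mouse 0107 stood alone, 0.66 below their non-TPCs, while the other mice differed by -0.06 and -0.02. The mean difference was -0.25 (SE 0.22, interval -0.77 to 0.27, limma adjusted p = 0.901), and without that array it was -0.0088.

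Bcl2l1, which encodes BCL-XL, was at 8.95, 8.87 and 8.98 in TPCs and at 8.92, 9.02 and 8.72 in non-TPCs. The fractions overlapped, and the difference was 0.05 (interval -0.27 to 0.37, limma adjusted p = 0.968). Bcl2l2, which encodes BCL-W, was at 8.33, 8.15 and 7.82 in TPCs and at 8.43, 8.27 and 7.42 in non-TPCs. Both Bcl2l2 arrays of mouse 0107 were below all others, and the difference between fractions was 0.06 (interval -0.64 to 0.76, limma adjusted p = 0.978).

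Of the effectors, Bak1 resides on the mitochondrial membrane and opens it once activated. Its 6 levels lay between 4.63 and 4.81, next to the first quartile of the arrays, which was 4.52 to 4.65. Such dim signal says little about the gene. The difference was 0.02 (interval -0.27 to 0.31, limma adjusted p = 0.986).

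Pmaip1 encodes NOXA, a BH3-only protein that binds MCL1 and promotes its degradation. Its level was 4.50, 4.48 and 3.90 in TPCs and 5.15, 5.48 and 4.53 in non-TPCs of mice 1127, 920 and 0107. Every TPC array lay below every non-TPC array, the closest being the TPCs of mouse 1127 and the non-TPCs of mouse 0107. Within mice the differences were -0.65, -1.0 and -0.63. The mean was -0.76 (SE 0.29, interval -1.45 to -0.07), and the limma adjusted p of 0.729 did not pass. In the fit with each mouse as a replicate block its unadjusted limma p was 0.00324, where 6.23% of all genes were lower in TPCs with a p under 0.05, and the adjusted p of 0.217 did not pass either.

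The Pmaip1 values are dim: the TPC arrays, from 3.90 to 4.50, lay below the first quartile of every array, and the gene has 1 probe set. In the same mice 6 of 8 leukocyte, 9 of 9 alveolar and airway and 6 of 8 fibroblast markers had lower values in TPCs of all 3. Their part in the Pmaip1 difference was not tested.

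Bid encodes a BH3-only protein that caspase-8 cuts into its active form, linking death receptors to mitochondria. It was at 6.79, 6.51 and 6.40 in TPCs and at 6.86, 6.56 and 7.42 in non-TPCs of mice 1127, 920 and 0107. The non-TPCs of mouse 0107 stood above the 5 other arrays, and the differences within mice were -0.08, -0.04 and -1.03. The mean difference of -0.38 (SE 0.24, interval -0.97 to 0.20, limma adjusted p = 0.877) rested on that array. Without it the difference was -0.15, and without both arrays of mouse 0107 it was -0.060. As a mean over the 3 Bid probe sets the difference was -0.075. Of these, 2 were dim, with mean levels of 4.42 and 4.13. In the same array the 8 endothelial markers averaged 7.25, against 6.74 and 5.92 in the non-TPCs of mice 1127 and 920. Of these markers Vwf alone was lowest there among the non-TPC arrays, at 9.81. The mean of the lymphocyte markers was also highest there, at 5.57. Those of the neuroendocrine (10.51), leukocyte (7.55), macrophage and monocyte (7.48), fibroblast (7.04) and alveolar and airway (10.09) markers were lowest there. That of the neutrophil markers, at 7.47, was in between. The part of these cell types in the Bid level was not tested.

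Bcl2l11 encodes BIM, a BH3-only protein that binds every anti-apoptotic member and is a known target of FOXO factors. Its level was 9.92, 10.11 and 9.84 in TPCs and 10.08, 9.96 and 9.69 in non-TPCs. The ranges overlapped, with the non-TPCs of mouse 0107 below all TPC arrays (difference 0.05, interval -0.33 to 0.43, limma adjusted p = 0.971). Bbc3 encodes PUMA, a p53-induced BH3-only protein. Its level was 7.89, 7.49 and 7.50 in TPCs and 7.34, 7.60 and 7.48 in non-TPCs. The highest array was the TPCs of mouse 1127, and the other 5 lay within 0.26 of each other (difference 0.15, interval -0.24 to 0.54, limma adjusted p = 0.912). Both genes exceeded 6.91, the all-gene median, in all 6 arrays.

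**Figure D2:**
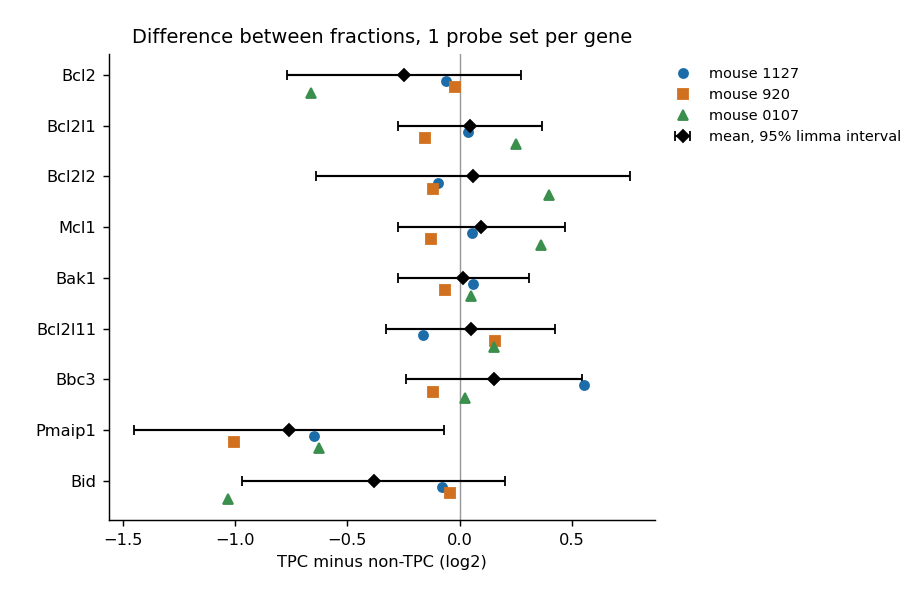
Difference between fractions (TPC minus non-TPC, log2) for the 9 measured members. Black diamonds are means over 3 mice with the 95% limma interval, and coloured points are single mice. The intervals are from the fit with fraction as the only term. They include spread between mice and do not measure the spread of the coloured points. The interval of Pmaip1, from -1.45 to -0.07, is the only one without 0, and it is not adjusted for the number of genes.

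The balance between the arms of the family was described within each mouse. Levels of different probe sets cannot be set against each other on an array, so the balance is a difference of differences. It is the mean TPC minus non-TPC difference of the 4 anti-apoptotic members minus that of the 5 measured pro-apoptotic ones. The anti-apoptotic mean was -0.02, -0.11 and 0.09 in mice 1127, 920 and 0107, and the pro-apoptotic mean was -0.05, -0.21 and -0.29. The balance was 0.04, 0.11 and 0.37, towards the anti-apoptotic side in the TPCs of each mouse, with a mean of 0.17 ± 0.18 (SD, n = 3). No p-value is attached to it.

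The balance was recomputed with members left out. Without Pmaip1 it was -0.11, -0.09 and 0.29, with a mean of 0.03, so most of the value of mouse 0107 remained. Without Bid it was 0.03, 0.15 and 0.19, with a mean of 0.12. With only the members above the median level of all genes, which leaves out Pmaip1, Bid and Bak1, it was -0.21, -0.13 and -0.0014, with a mean of -0.11. The sign of the mean thus depended on which members were included. With the median over members in place of the mean it was 0.07, -0.06 and 0.28. Without mouse 0107 the mean over all members was 0.07.

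The balance was also read pair by pair. Of the 20 pairs of an anti-apoptotic with a pro-apoptotic member, 4 moved to the anti-apoptotic side in all 3 mice, 0 moved the other way in all 3, and 16 differed between mice. Of the 4, 3 involved Pmaip1. Mcl1 against Pmaip1, the protein it binds, gave 0.70, 0.87 and 0.99 in mice 1127, 920 and 0107, and Bcl2l1 against Pmaip1 gave 0.69, 0.85 and 0.88. Bcl2 against Bid was the remaining pair, at 0.02, 0.02 and 0.37. Mcl1 against Bcl2l11 gave 0.22, -0.29 and 0.21, and Bcl2 against Bcl2l11 gave 0.10, -0.18 and -0.81. The pairs share genes and are not independent.

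**Figure D3:**
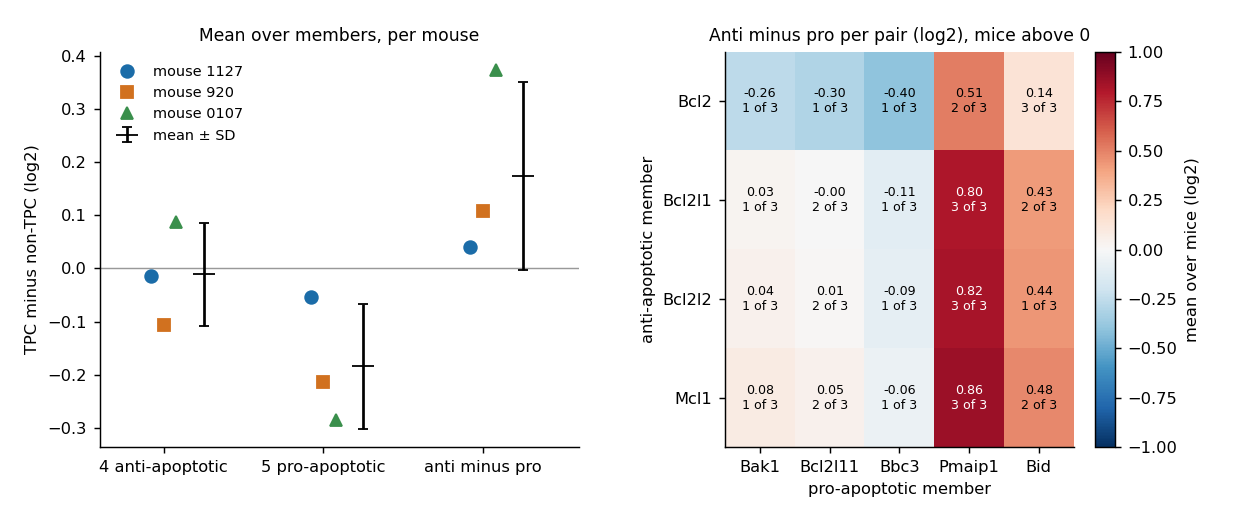
Balance of the family. Left, mean TPC minus non-TPC difference (log2) of the 4 anti-apoptotic and the 5 measured pro-apoptotic members in each mouse, and anti minus pro, with mean ± SD of 3 mice. Right, anti minus pro for each of the 20 pairs as the mean over mice, with the number of mice above 0. The Pmaip1 column holds the highest values, from 0.51 to 0.86.

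The 31 probe sets of the members were also tested singly, in a fit over all 45037 probe sets, of which 0.0244% passed. None of the 31 passed (limma adjusted p from 0.742 to 0.998). An unadjusted p under 0.05 was reached by 3 of 31, or 9.68%, against 5.46% of all probe sets. Fractions did not overlap for 3 of 31, the same share, against 11.6%. The direction was the same in all mice for 8 of 31, or 25.8%, against 31.8%.

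Probe sets of Bcl2 disagreed with each other. The brightest, 1457687_at, gave the values above. Probe set 1440770_at was lower in TPCs by 0.26, 0.64 and 0.39 in mice 1127, 920 and 0107, and its fractions did not overlap (difference -0.43, SE 0.13, limma adjusted p = 0.742). Probe set 1437122_at also did not overlap, with differences of -0.44, -0.36 and -0.69 (mean -0.49, limma adjusted p = 0.755). In contrast 1422938_at was higher in TPCs of all mice, by 0.60, 0.10 and 0.15 (mean 0.29, limma adjusted p = 0.954). The fifth, 1443837_x_at, differed by 0.15, -0.69 and -0.45. The sources used here do not say which Bcl2 transcripts each probe set detects, and the Bcl2 direction depended on the probe set read.

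All 6 Mcl1 probe sets were bright, with mean levels from 9.11 to 12.09, and 5 of them agreed. Those 5 were higher in TPCs of mouse 0107 by 0.36 to 0.54 and differed by -0.20 to 0.11 in the other mice. The sixth, 1416881_at, stood apart. It was at 10.03, 10.004 and 8.26 in TPCs and at 8.98, 9.59 and 7.81 in non-TPCs of mice 1127, 920 and 0107, so that both arrays of mouse 0107 were lowest. Within mice it was higher in TPCs by 1.05, 0.41 and 0.46 (mean 0.64, SE 0.62, limma adjusted p = 0.954). With the replicate block its unadjusted limma p was 0.0137 and its adjusted p 0.439.

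Probe sets of Bcl2l2 differed from each other as well. For Bcl2l2 the second probe set, 1451029_at, split the mice as the first did, with -0.50, -0.58 and 0.64 in mice 1127, 920 and 0107. Probe set 1430453_a_at was higher in TPCs of all mice, by 0.17, 0.39 and 0.05, and 1430454_x_at differed by 0.01, -0.03 and -0.28. The second Bcl2l11 probe set, 1435448_at, differed by -0.18, 0.05 and -0.01. Of the 31 probe sets, 7 had a mean level below 4.65, the highest first quartile of any array. These 7 were 3 of Bcl2l1, 2 of Bid and 1 each of Bak1 and Bcl2l11.

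**Figure D4:**
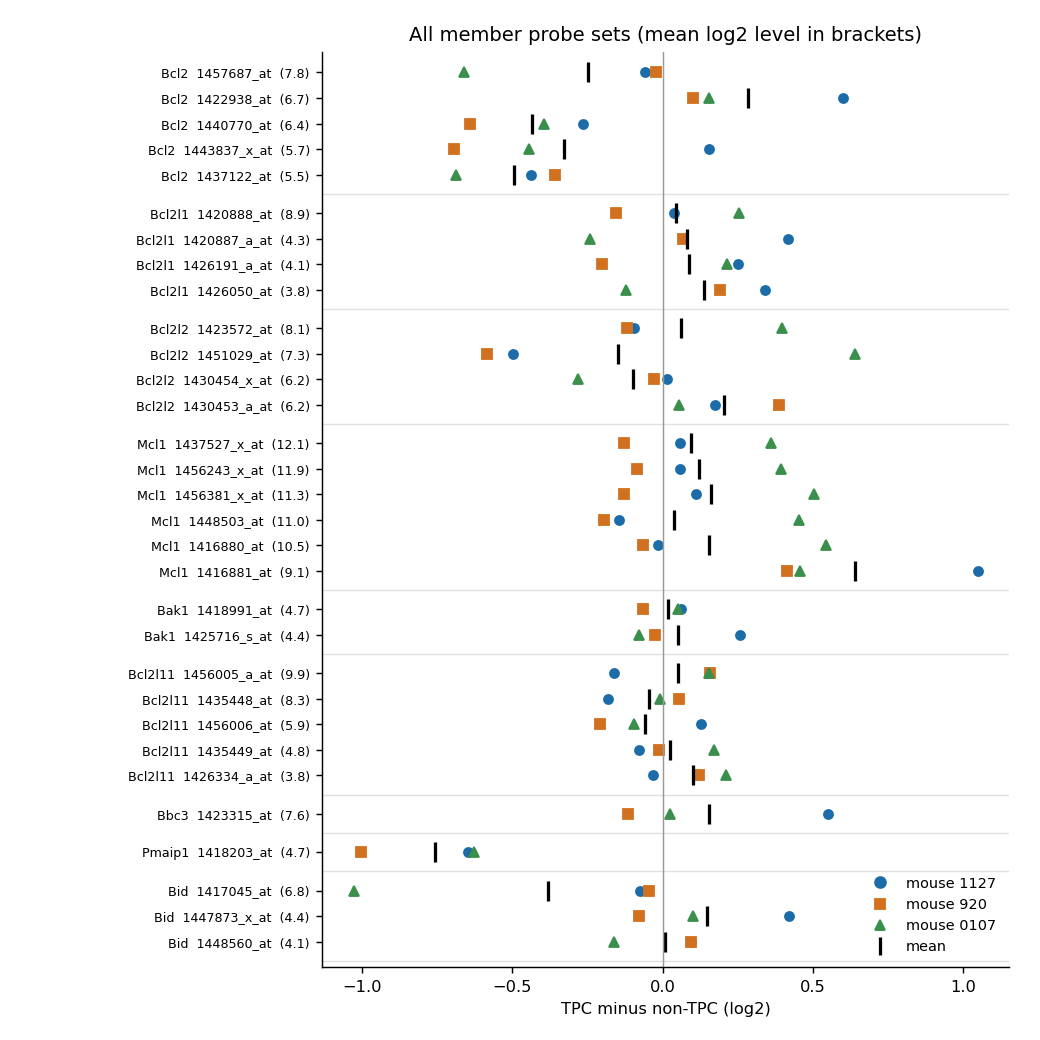
TPC minus non-TPC difference (log2) of all 31 member probe sets, ordered within a gene by mean level (in brackets, log2). Coloured points are single mice and black ticks the mean. Probe sets of Bcl2 fall on both sides of 0, from -0.49 to 0.29, while 5 of the 6 Mcl1 probe sets share a pattern and 1416881_at lies to the right at 0.64.

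Differences between mice were tested as well. The mouse term of the limma fit, which compares these 3 animals only, was not past the threshold for any member (adjusted p from 0.314 to 0.935), and 0.044% of all genes passed. Its unadjusted p was under 0.05 for 2 members, against 13.2% of all genes: Bcl2l2 (0.0265) and Pmaip1 (0.0161). Averaged over fractions, Bcl2l2 was 8.38, 8.21 and 7.62 in mice 1127, 920 and 0107, and Pmaip1 was 4.82, 4.98 and 4.21. Mouse 0107 was lowest for both.

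The 2 members with the widest range over the arrays were Pmaip1, at 1.58, and Bid, at 1.03. The genes whose levels followed Pmaip1 most closely over the 6 arrays were Upk1b (Pearson r = 0.989), Dmkn (0.986) and Lrsam1 (0.985). For Bid they were Atp23 (0.997), Gpr176 (0.992) and Dancr (0.992). With only 6 arrays the named genes were not alone: of 18193 genes, 52 had an r above 0.95 with Pmaip1 and 86 with Bid. Upk1b and Gpr176 themselves moved little, from 6.30 to 6.58 and from 4.57 to 4.80.

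Related genes of the pathway were read from 5 lists with 68 symbols, of which 61 were measured. None passed in either direction (lowest limma adjusted p 0.275). An unadjusted p under 0.05 was seen for 5 of 61, or 8.20%, against 6.48% of all genes. Fractions did not overlap for 13 of 61, or 21.3%, against 12.6%, 6 of them lower (5.91% of all genes) and 7 higher in TPCs (6.71%). The median difference of the 61 was 0.09, against 0.04 over all genes. As that median is above 0, more genes of the whole array were higher than lower in TPCs, which bears on the counts below.

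Among 10 further BCL2 relatives, 7 were higher and 3 lower in TPCs, with a median of 0.17. Bik, a BH3-only gene of epithelial and endocrine cells, was at 8.96, 9.26 and 9.36 in TPCs and at 8.72, 8.43 and 6.42 in non-TPCs of mice 1127, 920 and 0107. Every TPC array lay above every non-TPC array, by 0.23, 0.83 and 2.94 within mice (mean 1.33, SE 0.58, limma adjusted p = 0.784). Without the non-TPCs of mouse 0107 the difference was 0.61. Bcl2l12 was higher in TPCs by 0.34, 0.29 and 0.43 (mean 0.35, limma adjusted p = 0.795). Bcl2l10 differed by 0.29 and Bcl2l15 by -0.37, both from dim signal, and Bcl2l15 by -0.10 without the non-TPCs of mouse 0107.

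Of 11 genes of cytochrome c release and the apoptosome, 6 were higher and 5 lower, with a median of 0.03. Casp9, the initiator caspase of the apoptosome, was at 8.47, 8.82 and 8.03 in TPCs and at 8.0, 7.84 and 7.21 in non-TPCs. Its fractions did not overlap, and the differences within mice were 0.46, 0.98 and 0.82 (mean 0.76, SE 0.28, limma adjusted p = 0.715). With the replicate block its unadjusted limma p was 0.00453, near that of Pmaip1, and its adjusted p was 0.239. Averaged over all its probe sets the difference was 0.35. Aifm1, a mitochondrial flavoprotein, differed by -0.48, Diablo, an antagonist of inhibitor of apoptosis proteins, by 0.24 and the mitochondrial protease gene Htra2 by -0.32. Single arrays moved these values: Aifm1 was at -0.30 without the non-TPCs of mouse 0107, Diablo at 0.11 without those of mouse 920, and Htra2 at -0.15 without those of mouse 1127 and -0.20 without the TPCs of mouse 920. Without mouse 920 Diablo differed by 0.031. The apoptosome scaffold Apaf1 was at 7.92 to 8.11 in TPCs and 8.02 to 8.30 in non-TPCs.

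Inhibitors of apoptosis proteins, which block caspases downstream of mitochondria, had 3 higher and 4 lower of 7, with a median of -0.09. Birc3, a target of NF-kB, was at 7.06, 7.48 and 7.74 in TPCs and at 8.30, 8.41 and 7.75 in non-TPCs. The gap was -1.24 and -0.92 in mice 1127 and 920 and near 0 in mouse 0107 (mean -0.72, SE 0.25, limma adjusted p = 0.657). Without mouse 1127 it was -0.46. Birc2 differed by -0.29, Birc6 by 0.16 and Naip5 by 0.22. The Birc2 value was -0.073 without the TPCs of mouse 1127, Birc6 was at 0.089 without the non-TPCs of mouse 920, and Naip5 turned to -0.11 without the TPCs of mouse 0107 and to -0.050 without its non-TPCs.

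Of 16 other p53 target genes, 7 were higher and 9 lower, with a median of -0.03. The death receptor Fas had the smallest p of the 61. It was at 4.04, 4.18 and 4.15 in TPCs and at 4.88, 4.97 and 5.54 in non-TPCs, with no overlap (difference -1.01, SE 0.20, limma adjusted p = 0.275, and 0.18 with the replicate block). Its TPC levels lay below the first quartile of every array. The part of the leukocyte, fibroblast and alveolar markers, whose levels are given above, in the Fas and Birc3 differences was not tested. Plk2, a polo-like kinase, differed by -0.40, the stress-response gene Sesn2 by 0.46 and the cyclin Ccng1 by -0.32. As a mean over probe sets Plk2 was at -0.14. Without the non-TPCs of mouse 0107 Sesn2 was at 0.30, and without the TPCs of mouse 1127 Ccng1 was at -0.13.

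The list of genes that control the turnover and activity of the family had 13 of 17 higher and 4 lower, with a median of 0.16. Foxo3, a transcription factor known to induce Bcl2l11 and Bbc3, was at 7.96, 8.15 and 8.14 in TPCs and at 7.53, 7.74 and 7.63 in non-TPCs. The fractions did not overlap, with differences of 0.43, 0.41 and 0.52 within mice (mean 0.45, SE 0.13, limma adjusted p = 0.558). Its targets Bcl2l11 and Bbc3, given above, overlapped between fractions, and a link of their levels to Foxo3 was not tested. Huwe1, a ubiquitin ligase of MCL1, differed by -0.39, the co-chaperone Bag4 by 0.40 and the cullin Cul5 by 0.25. Leaving out 1 array moved each: Huwe1 was at -0.14 without the non-TPCs of mouse 0107, Bag4 at 0.15 without the TPCs of mouse 920 and Cul5 at 0.11 without the non-TPCs of mouse 920. As a mean over probe sets Cul5 differed by 0.029.

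**Figure D5:**
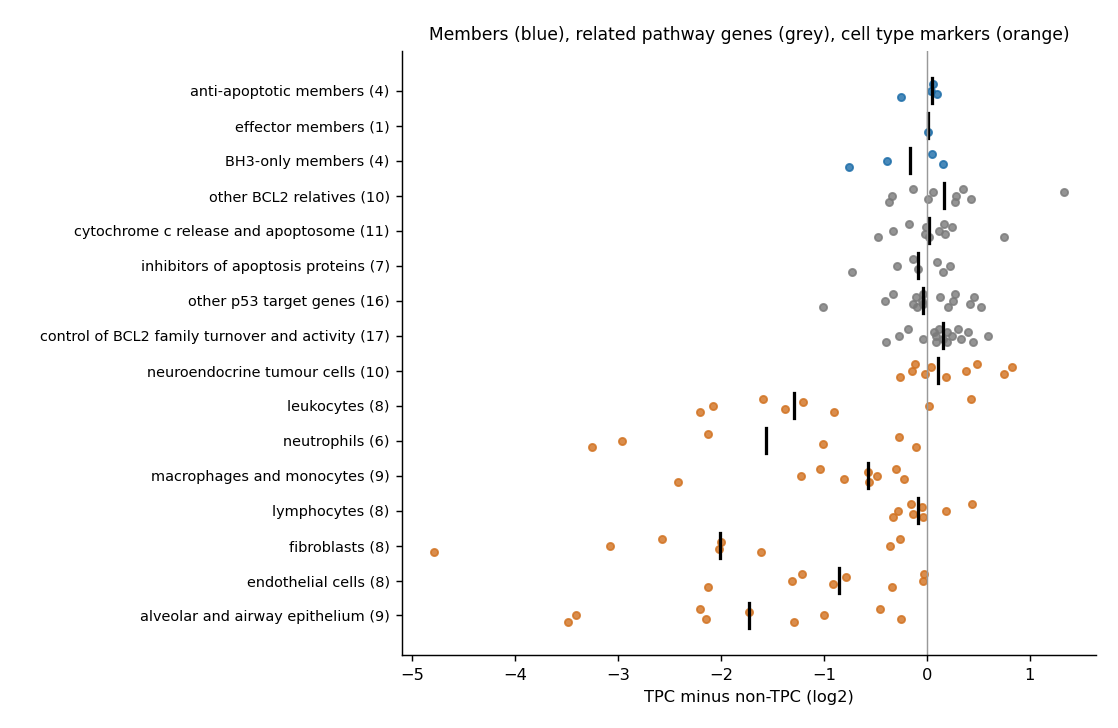
TPC minus non-TPC difference (log2) of single genes by list, with the number measured in brackets and the list median as a black bar. The medians of members and pathway lists lie between -0.17 and 0.17, and those of fibroblast (-2.01), alveolar and airway (-1.73), neutrophil (-1.56) and leukocyte (-1.29) markers lie to the left.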

How the data were processed

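Total RNA of cells sorted into Trizol was labelled with the Affymetrix WT Plus kit, per the labels' protocols. The deposited log2 values were made by the authors with RMA, per the submitters' processing notes, version not given in the sources used here. Their range, 2.70 to 14.81, set the scale. The annotation is that of a 3′ expression array although the kit labels whole transcripts, and the sources do not explain this.

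Of 45101 probe sets, 64 controls were left out. Symbols were updated to RefSeq (GRCm38.p6) for 18032 genes, and 161 kept the annotation's symbol. Each gene was read from its brightest probe set (highest mean of 6 arrays). The test was limma 3.58.1 (functions lmFit and eBayes, under R 4.3.3), two-sided, with fraction as the only term and no filter, adjusted over all genes. It was checked on simulated data, where it missed some of the changes put in, small ones more often. A member that did not pass may therefore still differ.

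Both fractions of a mouse come from 1 animal, so the mouse pairs them. Deviations from the fraction means correlated at 0.30, 0.46 and 0.36 across genes within mice 1127, 920 and 0107 and at most -0.08 between mice. Such deviations cancel out within a fraction, so positive covariances within mice force negative ones between mice on average. The values between mice are therefore no separate evidence of the pairing. A second fit took each mouse as a replicate block.

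Members and lists were chosen with earlier results of these data known. All members and up to 4 genes per list with the smallest p are named, with the 3 genes most correlated with each of the 2 members of widest range. Apaf1 was named after its values were seen.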

Additional observations from a re-analysis of the deposited data

How the results depend on the processing

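No member passed the limma threshold in any of the 16 alternative settings run (lowest adjusted p 0.201, for Pmaip1 in the fit lacking the non-TPCs of mouse 0107), and no member probe set did (lowest 0.276). All 9 members kept their sign where no array was left out. With mice or single arrays left out, Bcl2 (-0.37 to -0.0088), Pmaip1 (-1.02 to -0.54) and Bid (-0.58 to -0.060) kept theirs, while the difference ranged from -0.058 to 0.15 for Bcl2l1, -0.25 to 0.26 for Bcl2l2, -0.036 to 0.21 for Mcl1, -0.017 to 0.073 for Bak1, -0.060 to 0.16 for Bcl2l11, -0.045 to 0.29 for Bbc3 and -0.38 to 0.54 for Naip5. Birc6 was -0.14 as a mean over probe sets.

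Genes called numbered 11, 13 with the replicate block, 39 with the mouse as a random block, 4 with means over probe sets, and 0 (without mouse 1127) to 84 (lacking the non-TPCs of mouse 0107) with arrays left out. Probe sets called numbered 11, 9 with the replicate block, 52 with the random block, 35 above the median level, 24 with an intensity trend and 0 to 72 with arrays left out. Genes differing between mice numbered 8, and 5 with means over probe sets. The balance was -0.11 with members above the median level alone, and 0.07 to 0.24 with a mouse left out, an alternative chosen after seeing the data. Bak1, Pmaip1 and Bid give no value above the median level. Signal near the first quartile limits Bak1, Pmaip1 and Fas. The cause of these changes was not tested.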
